A study of Homo sapiens with 18 samples.

Results

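The chromosome 19 zinc finger genes are the protein-coding genes on human chromosome 19 whose symbols begin with ZNF and a number. The GENCODE release 29 annotation of genome build GRCh38 lists 249 of them. Transcripts of 246 were in the deposited table, 244 had at least 1 count in some library, and 231 passed the filter on low counts and were tested, out of 34287 genes in the table and 15530 tested. They were followed in HEK293 cells, a human embryonic kidney line, in 3 versions: the unedited cells (wildtype), cells that CRISPR-Cas9 editing had depleted of both β-arrestin1 and β-arrestin2 (β-arrestin1/2 KO), and cells that it had depleted of Gαs, the G protein subunit that stimulates cAMP production (Gαs KO). All 3 lines carried a transfected β2-adrenergic receptor (β2AR) plasmid, were starved of serum, and were given vehicle (basal) or 1 µM isoproterenol, a β-adrenergic agonist, for 1 h at 48 h after transfection, with 3 libraries in each of the 6 groups. Whether each KO line was a single clone is not given in the sources used here, so a difference between lines is a difference between these cell populations.

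Most chromosome 19 ZNF genes code for proteins with a row of C2H2 zinc fingers that bind DNA, and many also carry a KRAB domain. The KRAB domain recruits the corepressor TRIM28, which in turn brings the histone methyltransferase SETDB1 and heterochromatin proteins, and many of the targets are transposable elements. The genes arose by tandem duplication and lie in runs of close relatives along the chromosome. Because relatives share sequence, reads can be divided among them by the counting, and a value for any 1 member carries that uncertainty. This holds most of all for the 3 read-through genes (ZNF559-ZNF177, ZNF625-ZNF20 and ZNF816-ZNF321P), which share exons with other members.

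The libraries held 17908597 to 25019834 counts. GNAS, which encodes Gαs, was at 1264 normalized counts in Gαs KO basal libraries and 25210 in wildtype, and ARRB2 was lower in β-arrestin1/2 KO cells by -2.25 on the log2 scale, whereas ARRB1 did not pass (-0.27, edgeR adjusted p = 0.14). The HEK293 markers NEFL, NEFM, VIM, KRT8, KRT18, PAX2, LIN28B and CDH2 were counted in every library. Of the markers of other cell types PTPRC, PECAM1 and ALB had at most 12 counts, whereas COL1A1 had 360 to 962. Wildtype basal replicate 1 stood apart in base composition: the mean GC content of the counted genes was 52.3% in it and 49.2% to 50.1% in the other 17 libraries. Many results that rest on it are therefore given with and without it, and others beside the isoproterenol comparison, where it takes no part in the means. For some results neither is given. The replicates were labelled as biological, without saying whether they came from separate cultures, so p-values measure the spread between these libraries.

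In the fit of all libraries 1 member, ZNF331, was called in a response to isoproterenol. ZNF331, a KRAB zinc finger gene known from rearrangements in thyroid adenomas and for imprinted expression, doubled after 1 h in wildtype cells, reached a higher level in stimulated β-arrestin1/2 KO cells, and gave no called response in Gαs KO cells. It lies at chr19:53519527-53580269 on the plus strand (ENSG00000130844), and the annotation gives it starts at an upstream, a middle and a downstream block of sites. Promoter windows (250 bases before to 50 after a start, RefSeq, GRCh38.p14) are shown for a pair of downstream starts and for the upstream block, which carried most of the basal counts. The window at 53554577 belongs to the start at 53554827, where most of the rise was counted. The window at 53555057 belongs to the start at 53555307 and is shown for its repeated motif alone, since the transcript from that start, ZNF331-226, had 0, 22 and 0 counts in the wildtype isoproterenol libraries. Capitals mark TGACG on either strand, the core of the cAMP response element TGACGTCA through which CREB family factors act.

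ZNF331 downstream start, chr19:53554577-53554876, plus strand: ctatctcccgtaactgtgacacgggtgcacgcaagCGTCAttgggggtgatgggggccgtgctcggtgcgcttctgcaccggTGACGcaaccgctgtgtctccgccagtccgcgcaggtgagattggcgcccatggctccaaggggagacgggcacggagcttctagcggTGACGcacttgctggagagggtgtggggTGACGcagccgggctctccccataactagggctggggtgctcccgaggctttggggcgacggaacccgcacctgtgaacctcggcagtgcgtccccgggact
ZNF331 further downstream start, chr19:53555057-53555356, plus strand: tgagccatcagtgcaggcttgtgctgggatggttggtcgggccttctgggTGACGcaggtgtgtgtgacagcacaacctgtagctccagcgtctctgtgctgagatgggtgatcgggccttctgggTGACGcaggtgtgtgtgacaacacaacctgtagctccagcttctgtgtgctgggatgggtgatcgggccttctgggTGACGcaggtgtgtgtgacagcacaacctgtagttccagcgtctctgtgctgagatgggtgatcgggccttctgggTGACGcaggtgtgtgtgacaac
ZNF331 upstream start, chr19:53520764-53521063, plus strand: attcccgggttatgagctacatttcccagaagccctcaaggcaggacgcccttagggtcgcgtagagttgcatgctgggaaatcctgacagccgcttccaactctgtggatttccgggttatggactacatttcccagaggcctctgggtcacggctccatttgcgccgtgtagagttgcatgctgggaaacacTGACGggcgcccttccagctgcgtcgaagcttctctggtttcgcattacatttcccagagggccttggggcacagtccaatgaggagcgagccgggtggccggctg

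The window at 53554577 held 4 copies of TGACG, of which 3 extended to TGACGCA, and the window at 53555057 held 4 copies of TGACG, all of them TGACGCA. The upstream window held 1 TGACG and no TGACGCA, and so did the window of the middle block at 53537057, which belongs to the start at 53537307. The counts of the middle block were also higher after isoproterenol. They rose mainly in ZNF331-224, which begins at 53538430, and no window of that start was examined. None of these windows held the full TGACGTCA. Over all 35116 RefSeq promoter windows, counting both strands, 24.6% held TGACG (which every copy of the longer motifs contains), 2.47% held TGACGCA and 1.85% held TGACGTCA. At least 3 copies of TGACGCA were found in 3 windows, or 0.00854% of the total, and all 3 belonged to the downstream block of ZNF331, with 2 of them overlapping each other. The 2 overlapping windows share copies that lie in a repeated stretch. TGACGCA and the limit of 3 copies were not planned beforehand, so this share describes ZNF331 and is no test. Among the 265 windows of the 217 members with an entry, 35.5% held TGACG, 3.40% held TGACGCA and 3.02% held TGACGTCA. A match of letters is a description of the window and not a measured binding site.

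The ZNF331 gene sum in wildtype basal libraries was 985.2, 1093 and 959.1 counts after TMM normalization, the scale used for every count level here unless stated. After isoproterenol it was 2210, 1942 and 2003 in the wildtype libraries. In β-arrestin1/2 KO cells it went from 995.8, 1118 and 1169 to 3137, 2765 and 2715, the highest levels of the gene in the series. In Gαs KO cells it was 889.8, 876.1 and 985.0 at basal and 975.6, 935.7 and 921.0 with isoproterenol, and the groups overlapped. The log2 response of wildtype cells was 1.02 ± 0.09 (SE; edgeR quasi-likelihood test, Benjamini-Hochberg adjusted p = 4.6e-06). The β-arrestin1/2 KO line had a response of 1.39 ± 0.09 (adjusted p = 4.1e-08), whereas for the Gαs KO line it was 0.04 ± 0.09 (adjusted p = 1.0). The response in Gαs KO cells was lower than that in wildtype by -0.98 ± 0.12 on the log2 scale (adjusted p = 0.00095). The response in β-arrestin1/2 KO cells exceeded that in wildtype by 0.37 ± 0.12, which did not pass (adjusted p = 0.53), and passed without wildtype basal replicate 1 (0.39, adjusted p = 0.041). Between stimulated libraries, β-arrestin1/2 KO cells were above wildtype by 0.49 ± 0.09 (adjusted p = 0.0005) and Gαs KO cells were below it by -1.12 ± 0.09 (adjusted p = 1.2e-07). In a fit of the 6 wildtype libraries alone the wildtype response was 1.02 with an adjusted p of 0.085.

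No other member was called in a response in the fit of all libraries, but this count depended on the fit. In the β-arrestin1/2 KO response 4 members were called by DESeq2, 8 with offsets for GC content and length and 10 with only the 6 libraries compared, and in the wildtype response the last of these fits called 0. The shares of all genes in these other fits are not given. In the fit of all libraries 0.412% of all genes tested were called higher and 0.0515% lower by isoproterenol in wildtype. For the β-arrestin1/2 KO response these shares were 0.953% and 0.174%, and for the Gαs KO response 0%, where 1 member and 164 genes had an unadjusted p under 0.05 and DESeq2 called no member either. For the difference of the β-arrestin1/2 KO response from that of wildtype, 0 members were called, 20 had an unadjusted p under 0.05, and 1 was called by DESeq2, with 0.142% of all genes called higher and 0.0258% lower. For Gαs KO against wildtype the call of ZNF331 stood against 0.155% of all genes lower and 0.00644% higher. Without wildtype basal replicate 1 the β-arrestin1/2 KO response had 4 members called higher and 19 lower, against 6.65% and 5.33% of all genes, and its difference from wildtype 3 higher and 8 lower, against 4.37% and 3.97%. The same 2 groups of β-arrestin1/2 KO libraries entered that response in both fits, which differ in the estimate of the spread.

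**Figure D1:**
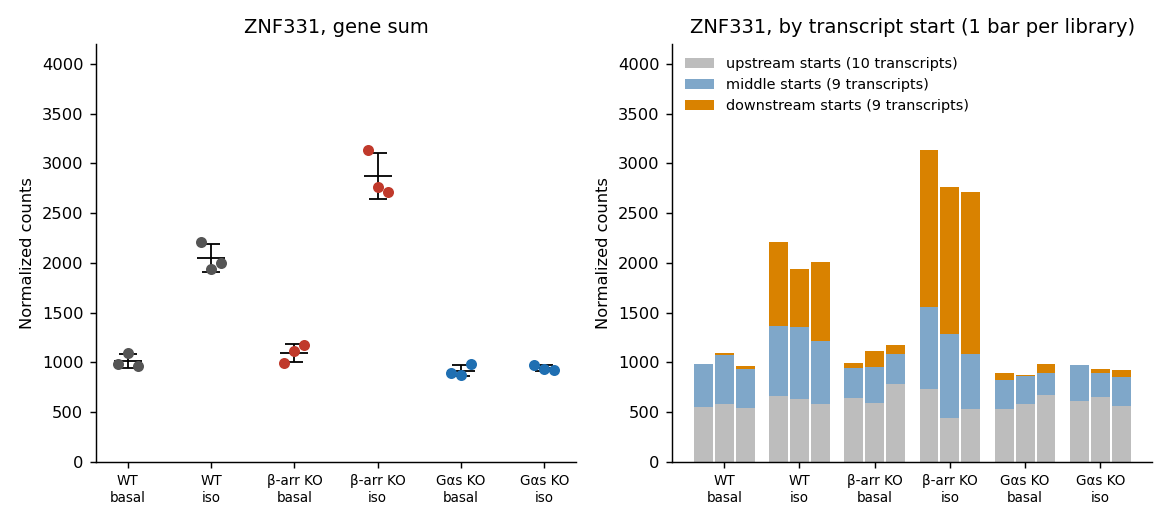
ZNF331 in 18 libraries, in normalized counts. Left, the gene sum, with a point per library and the mean ± SD of 3; right, the same counts split by where the annotated transcript starts, with 1 bar per library. The downstream starts carried a mean of 740.3 counts after isoproterenol in wildtype, against 1565 for the β-arrestin1/2 KO line and 36.7 for the Gαs KO line.

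The rise sat mainly in transcripts from the downstream starts. The 9 transcripts that begin between 53554499 and 53555487 summed to 0, 17.7 and 27.1 normalized counts in wildtype basal libraries and to 844.2, 590.8 and 785.8 with isoproterenol. In β-arrestin1/2 KO cells they went from 58.3, 168.0 and 90.2 to 1582, 1479 and 1634, which was 50.4% to 60.2% of the gene's counts. The Gαs KO libraries had 68.2, 17.97 and 96.0 at basal and 0, 41.5 and 68.6 with isoproterenol. The 10 upstream transcripts kept close to their basal level, with 557.4 ± 22.0 (SD, n = 3) at basal and 624.6 ± 41.1 with isoproterenol in wildtype, with 674.2 ± 98.4 and 567.5 ± 150.3 for the β-arrestin1/2 KO line. The 9 transcripts of the middle block were between them, at 440.1 ± 50.5 and 687.0 ± 46.1 in wildtype, with 314.5 ± 34.5 and 739.9 ± 166.0 for the β-arrestin1/2 KO line. These splits were not tested.

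In stimulated wildtype and β-arrestin1/2 KO libraries a single transcript made up most of the downstream block. ZNF331-227 (ENST00000648511), which begins at 53554827, the start of the window at 53554577, had 0 counts in all 9 basal libraries of the 3 lines and in the 3 isoproterenol libraries of Gαs KO cells. It had 647, 465 and 651 expected counts in the wildtype isoproterenol libraries and 1444, 1371 and 1441 in those of β-arrestin1/2 KO cells. Its normalized mean with isoproterenol was 189-fold over a floor of 3 counts per library in wildtype, and 496-fold over it for the β-arrestin1/2 KO line. That floor does not cover how reads are divided among overlapping transcripts, so these folds are no lower bound. Where ZNF331-227 was at 0, the block's counts were mainly those of ZNF331-217, which begins at 53554499 and had 17.74 normalized counts in wildtype basal replicate 2 and 68.64 in Gαs KO isoproterenol replicate 3. ZNF331-224, of the middle block, had 0 counts in the wildtype basal libraries and 363, 424 and 337 with isoproterenol, but also 90 in 1 basal library of β-arrestin1/2 KO cells, and 35 in 1 basal and 155 in 1 stimulated library of Gαs KO cells. ZNF331-203, of the same block, went the other way in wildtype, from 334.3, 439.7 and 359.4 normalized counts at basal to 275.7, 173.9 and 120.7 with isoproterenol. The upstream transcript ZNF331-201 had between 361 and 741 counts in all 18 libraries. Salmon estimates how reads from shared exons divide among transcripts, so the counts of single transcripts are less certain than the gene sum. By a rule of at most 3 counts in each basal and at least 20 in each isoproterenol library of a line, 3 of the members' 1619 transcripts were switched on in wildtype (ZNF331-224, ZNF331-227 and ZNF225-206) and 2 in β-arrestin1/2 KO cells (ZNF331-227 and ZNF480-202), against 0.0422% and 0.0481% of all transcripts in the table. No member transcript met it in Gαs KO cells, against 0.0157% of all transcripts. The opposite pattern was met by no member transcript in wildtype (all transcripts, 0.027%), by ZNF43-210 in β-arrestin1/2 KO cells (0.0525%) and by ZNF211-203 in Gαs KO cells (0.0335%). This rule was chosen after the ZNF331 values were seen.

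None of the 8 members whose windows held the full TGACGTCA passed the test of a response. ZNF121, ZNF266, ZNF426, ZNF460, ZNF543, ZNF547, ZNF561 and ZNF562 had log2 responses from -0.23 (ZNF547) to 0.19 (ZNF121) in wildtype, with adjusted p-values from 0.55 to 0.78. For the β-arrestin1/2 KO line they ran from -0.25 to 0.16, with adjusted p-values from 0.79 to 0.99. The other members with a TGACGCA in a window were ZNF540, ZNF566, ZNF628, ZNF761 and ZNF780B, each with fewer than 2 copies in any window.

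Many members differed between the lines at basal. In β-arrestin1/2 KO cells 74 of 231 members were called higher than in wildtype at basal and 12 lower (32.0% and 5.19%), whereas 15.7% of all genes tested were called higher and 17.9% lower. With isoproterenol the counts were 40 higher and 13 lower, against 14.3% and 15.7% of all genes. Gαs KO cells had 36 members higher and 8 lower at basal, against 14.2% and 17.1% of all genes, and 35 higher and 12 lower with isoproterenol, against 14.1% and 15.8%. The members' median log2 difference in β-arrestin1/2 KO cells was 0.27 at basal and 0.14 with isoproterenol, and that in Gαs KO cells 0.17 and 0.14, where the medians of all genes were between 0.01 and 0.02. Members thus shared a shortage of lower calls, 3.46% to 5.63% in the 4 comparisons, and an excess of higher calls over the background only in β-arrestin1/2 KO cells at basal by over 1.5 times. Both KO lines were set against the same wildtype libraries, so the comparisons are not independent of each other. Compared directly at basal, 25 members were called higher and 9 lower in β-arrestin1/2 KO than in Gαs KO cells, against 13.8% and 12.4% of all genes. A fit of only the 6 libraries of a comparison called 12 members higher and 0 lower in β-arrestin1/2 KO cells at basal and 6 higher and 4 lower in Gαs KO cells, and offsets for GC content and length gave 78 higher and 24 lower and 51 higher and 29 lower. Leaving out single libraries moved the count of 44 called members in Gαs KO cells at basal to 69 without wildtype basal replicate 2 and to 29 and 28 without basal replicates 2 and 3 of the KO line, and the 53 in stimulated β-arrestin1/2 KO cells to 31 and 35 without isoproterenol replicates 1 and 3 of that line. The shares of all genes called in these other fits are not given, so their member counts cannot be set against a background. In these bulk libraries, fewer cells that express a gene and less RNA per cell cannot be told apart.

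Part of the excess moved with 1 library. Members are poor in GC, with a median of 43.2% against 49.5% for all genes tested, and wildtype basal replicate 1 gave them 0.371% of its counts where the other 5 wildtype libraries gave 0.458% to 0.480%. The share was 0.540% to 0.556% in basal and 0.513% to 0.518% in stimulated β-arrestin1/2 KO libraries, and 0.496% to 0.507% in Gαs KO libraries, above every wildtype library in each case. Without wildtype basal replicate 1 the basal counts were 74 higher and 21 lower in β-arrestin1/2 KO cells (all genes, 23.4% and 24.0%) and 43 higher and 29 lower in Gαs KO cells (all genes, 22.1% and 24.5%), and the members' medians fell to 0.20 and 0.04. With isoproterenol, where that library enters only the estimate of the spread, leaving it out gave 75 higher and 30 lower in β-arrestin1/2 KO cells (all genes, 25.2% and 25.2%) and 65 higher and 28 lower in Gαs KO cells (all genes, 24.3% and 25.9%), and the direct comparison of the KO lines gave 60 higher and 16 lower (all genes, 23.4% and 22.5%). The share of members called lower at basal stayed below that of all genes in both lines (9.09% and 12.6%), and the share called higher was above that of all genes in β-arrestin1/2 KO cells (32.0%) and below it in Gαs KO cells (18.6%). The part of base composition in these counts was not tested.

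**Figure D2:**
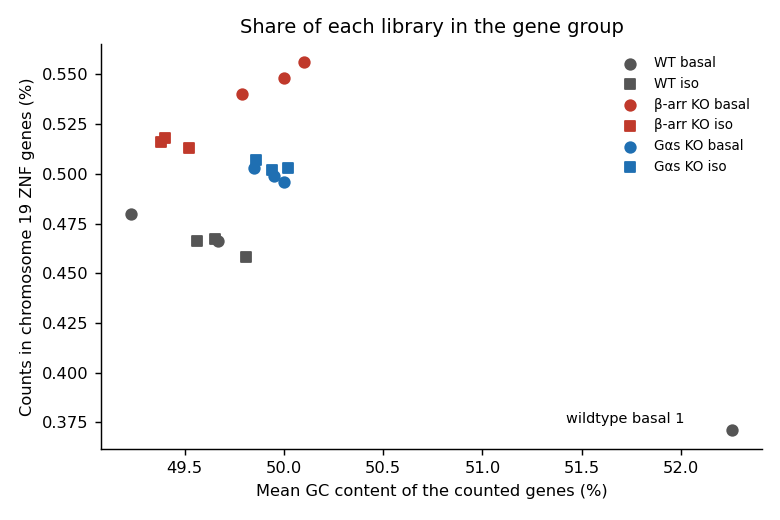
Share of each library's counts that fell in chromosome 19 ZNF genes (%) against the mean GC content of the counted genes (%), with 1 point per library. Wildtype basal replicate 1 stands apart at 52.3% GC and a share of 0.371%, and the β-arrestin1/2 KO libraries have the highest shares.

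Genes outside the group were compared with it. For the 236 ZNF genes of other chromosomes tested, the median log2 difference in β-arrestin1/2 KO cells was 0.13 at basal and 0.03 with isoproterenol, with 18.2% called higher and 11.0% called lower at basal. It was 0.06 and 0.07 in Gαs KO cells, where 19.1% were called higher and 14.4% lower at basal, a larger share higher than the members' 15.6%, and without wildtype basal replicate 1 the basal medians were 0.06 and 0.01. Their median GC content was 45.9%. The other protein-coding genes of chromosome 19 outside the ZNF runs (814 tested, median GC 61.1%) had medians of -0.08 at basal and -0.06 with isoproterenol in β-arrestin1/2 KO cells, and 11.7% of them were called higher at basal. Without wildtype basal replicate 1 their basal median turned to 0.16, with 31.3% called higher, close to the members' 0.20 and 32.0%, and that in Gαs KO cells turned from -0.03 to 0.20, with 34.6% called higher, above the members' 0.04 and 18.6%. In β-arrestin1/2 KO cells the 57 genes that are no members but lie inside the runs had medians of 0.10 at basal and 0.07 with isoproterenol. Of these genes 14.0% were called higher and 15.8% lower at basal, and the basal median was 0.23 without that library. In Gαs KO cells their medians were -0.13 and 0.10, with 7.02% called higher and 14.0% lower at basal, and the basal median turned to 0.12 without that library. The differences between these groups of genes were not tested.

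No member met the limits set here for being near 0 in one line while counted in another. By the rule of at most 3 counts in each of a line's 6 libraries and at least 20 in each of the 6 of another line, 0 members qualified, where 40 of 23920 genes with a count did (0.167%). Limits of 10 and 50 counts also gave 0 members and 40 genes. No member transcript met the rule of 3 and 20 counts between any pair of lines, against 0.0498% of all transcripts. With such small shares over all genes and transcripts, counts of 0 do not set the members apart from them. The members closest to it were ZNF135 and ZNF563. Their promoter windows are shown because those members gave the largest differences between lines in each direction, with each CpG, the dinucleotide that DNA methylation acts on, in capitals.

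ZNF135, chr19:58058989-58059288, plus strand: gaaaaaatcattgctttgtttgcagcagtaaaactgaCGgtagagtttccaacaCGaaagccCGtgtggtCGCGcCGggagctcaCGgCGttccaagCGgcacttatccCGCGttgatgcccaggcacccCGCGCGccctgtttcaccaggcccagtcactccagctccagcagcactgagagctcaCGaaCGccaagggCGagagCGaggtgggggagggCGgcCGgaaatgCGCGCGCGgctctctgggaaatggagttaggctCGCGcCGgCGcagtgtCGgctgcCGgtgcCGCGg
ZNF563, chr19:12333584-12333883, minus strand: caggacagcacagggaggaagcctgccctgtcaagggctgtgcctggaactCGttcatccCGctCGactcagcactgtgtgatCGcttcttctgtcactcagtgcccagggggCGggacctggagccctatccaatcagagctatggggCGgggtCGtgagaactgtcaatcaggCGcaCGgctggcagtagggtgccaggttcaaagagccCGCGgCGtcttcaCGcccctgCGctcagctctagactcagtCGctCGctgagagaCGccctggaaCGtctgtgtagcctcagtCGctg

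The ZNF135 window held 32 CpG and the ZNF563 window 19, where the median was 14 over all windows (quartiles 4 and 28) and 20 over the members' windows (quartiles 14 and 26), so that of ZNF563 was near the members' median. No methylation was measured.

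ZNF135, near the end of the chromosome at chr19:58059239-58086310, was nearly lost from Gαs KO cells. Its counts there were 3.74, 2.81 and 4.19 at basal and 7.83, 3.92 and 1.14 with isoproterenol. In wildtype cells they were 41.7, 26.8 and 40.3 at basal and 32.6, 35.5 and 20.9 with isoproterenol, and in β-arrestin1/2 KO cells between 20.2 and 46.6. The 6 Gαs KO libraries all lay below the other 12. The log2 difference from wildtype was -3.29 ± 0.48 (SE) at basal (edgeR, adjusted p = 8.1e-05) and -2.72 ± 0.48 with isoproterenol (adjusted p = 0.00043), and β-arrestin1/2 KO cells exceeded Gαs KO cells by 3.25 ± 0.48 at basal (adjusted p = 9.2e-05).

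ZNF563, in the ZNF653 to ZNF791 run at chr19:12317477-12333720 on the minus strand, was nearly absent from wildtype. Its counts were 0, 5.58 and 2.24 in wildtype basal and 3.26, 1.01 and 9.40 in wildtype stimulated libraries. They were 40.9, 53.0 and 32.8 at basal and 41.3, 43.5 and 62.9 with isoproterenol in β-arrestin1/2 KO cells. In Gαs KO cells they were between those, 16.8, 14.99 and 18.4 at basal and 11.7, 11.8 and 14.8 with isoproterenol, and no group of 1 line overlapped a group of another. The log2 difference of β-arrestin1/2 KO from wildtype was 3.98 ± 0.64 at basal (adjusted p = 0.00018) and 3.40 ± 0.59 with isoproterenol (adjusted p = 0.00038). For Gαs KO it was 2.65 ± 0.66 (adjusted p = 0.006) and 1.46 ± 0.62 (adjusted p = 0.089), the latter passing without wildtype basal replicate 1 (adjusted p = 0.026). The wildtype library at 0 was basal replicate 1, and without it the basal values were 3.40 and 2.06. The KO lines differed from each other by 1.33 ± 0.50 at basal, which did not pass (adjusted p = 0.063) and passed without that library (1.34, adjusted p = 0.012).

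**Figure D3:**
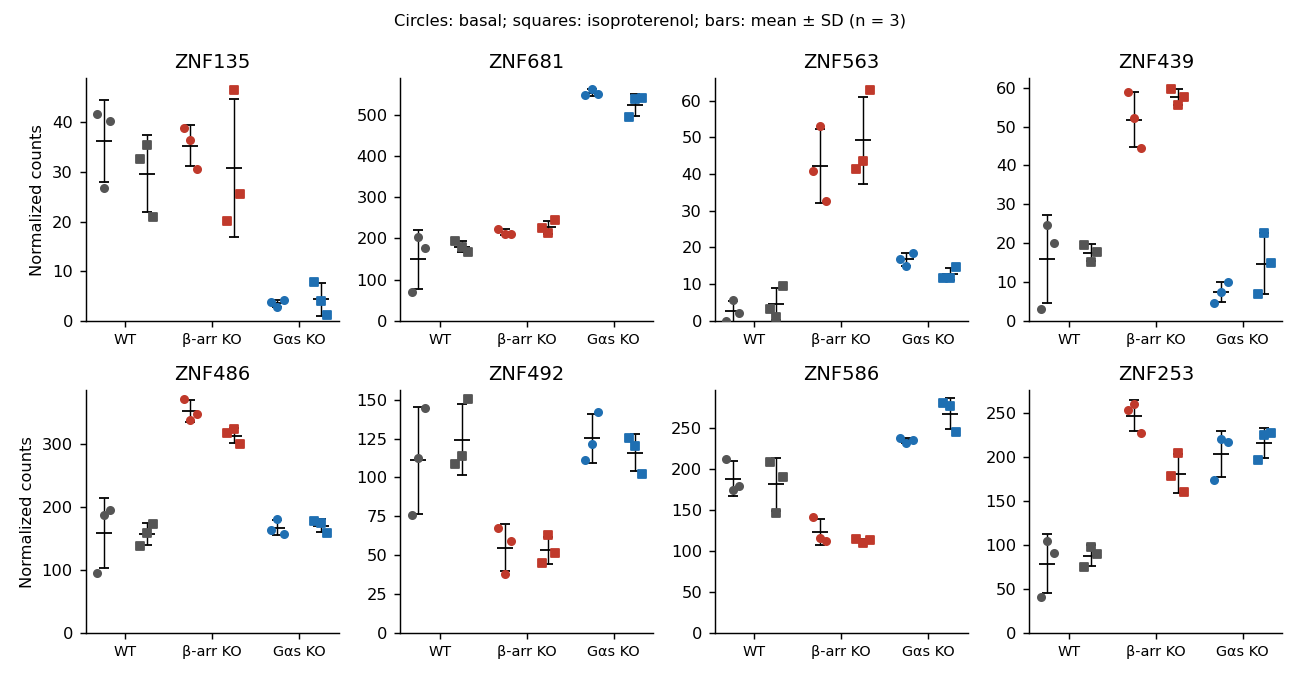
Normalized counts of 8 members in each library (circles, basal; squares, isoproterenol), with mean ± SD of 3. ZNF135 is low in Gαs KO cells only, ZNF681 is high in them, ZNF563, ZNF439 and ZNF486 are highest in β-arrestin1/2 KO cells, ZNF492 and ZNF586 are lowest in β-arrestin1/2 KO cells, and ZNF253 is higher in both KO lines than in wildtype.

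Members called against wildtype in the same direction at basal and again with isoproterenol numbered 33 higher and 8 lower in β-arrestin1/2 KO cells, against 10.7% and 12.6% of all genes, and 21 higher and 5 lower in Gαs KO cells, against 9.67% and 12.2%. As shares of the members these were 14.3% and 3.46% and then 9.09% and 2.16%. Without wildtype basal replicate 1 they numbered 48 higher and 17 lower for the β-arrestin1/2 KO line and 37 and 20 for the Gαs KO line, and without isoproterenol replicate 1 of the β-arrestin1/2 KO cells that line had 18 higher and 6 lower. Without that wildtype library the share of all genes called at basal also rose, from 33.5% to 47.4% (β-arrestin1/2 KO) and 31.3% to 46.6% (Gαs KO). The share of all genes called in both treatments is not given for either fit. The 8 lower in β-arrestin1/2 KO cells were ZNF492, ZNF586, ZNF296, ZNF333, ZNF578, ZNF584, ZNF473 and ZNF8, ordered by the smaller of their basal and stimulated differences, and the first 8 higher were ZNF563, ZNF439, ZNF491, ZNF253, ZNF486, ZNF525, ZNF433 and ZNF347. Lower in Gαs KO cells were the 5 members ZNF135, ZNF578, ZNF880, ZNF8 and ZNF274, and the first 8 higher were ZNF681, ZNF253, ZNF90, ZNF429, ZNF524, ZNF112, ZNF525 and ZNF606.

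ZNF492 and ZNF586 were the strongest of the members lower in β-arrestin1/2 KO cells. ZNF492 had 67.2, 37.99 and 59.2 counts in their basal libraries, where wildtype had 76.0, 112.6 and 144.4 and Gαs KO cells had 111.1, 121.8 and 142.4. With isoproterenol it had 45.1, 62.7 and 51.2 against 108.6, 113.5 and 150.4 in wildtype. The 6 β-arrestin1/2 KO libraries lay below the other 12, and the log2 differences from wildtype were -1.02 ± 0.25 (adjusted p = 0.0048) and -1.23 ± 0.25 (adjusted p = 0.0015). ZNF586 had 141.7, 116.3 and 112.1 counts at basal against 212.5, 173.9 and 179.1 in wildtype, a log2 difference of -0.61 ± 0.14 (adjusted p = 0.0032), and -0.69 ± 0.14 with isoproterenol (adjusted p = 0.0016). ZNF586 was above wildtype in Gαs KO cells, by 0.32 ± 0.14 at basal, which did not pass (adjusted p = 0.091), and by 0.56 ± 0.14 with isoproterenol (adjusted p = 0.0056). ZNF333 had log2 differences of -0.55 and -0.65 in β-arrestin1/2 KO cells and ZNF296, a gene known for its expression in pluripotent cells, -0.74 and -0.56, with -0.84 (adjusted p = 0.0004) in Gαs KO cells at basal. ZNF473, whose product takes part in the processing of histone mRNA, had -0.29 and -0.39.

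ZNF681 was higher in Gαs KO cells than anywhere else. It had 548.1, 563.2 and 549.4 counts at basal and 493.2, 538.3 and 540.1 with isoproterenol there, where wildtype had 68.7, 202.9 and 176.8 and then 193.3, 179.3 and 166.1. The β-arrestin1/2 KO libraries had between 210.5 and 244.3, just above every wildtype library. The log2 difference of Gαs KO from wildtype was 1.89 ± 0.24 at basal (adjusted p = 1.8e-05) and 1.54 ± 0.24 with isoproterenol (adjusted p = 0.00011), and without wildtype basal replicate 1 the basal value was 1.54. β-arrestin1/2 KO cells were below Gαs KO cells by -1.36 ± 0.23 at basal (adjusted p = 0.00033).

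ZNF253 was higher in both KO lines. Its counts were 40.6, 104.8 and 90.7 in wildtype basal, 253.9, 260.4 and 227.3 in β-arrestin1/2 KO basal and 173.7, 221.1 and 216.9 in Gαs KO basal libraries. The KO libraries lay above all wildtype libraries, and the log2 differences at basal were 1.65 ± 0.24 (adjusted p = 6.9e-05) and 1.38 ± 0.24 (adjusted p = 0.00038). The lowest wildtype count, 40.6, was that of basal replicate 1, so the basal differences rest in part on that library. With isoproterenol, where that library takes no part in the means, the differences were 1.04 ± 0.24 and 1.30 ± 0.24. The 2 KO lines differed from each other by 0.28 ± 0.23, which did not pass (adjusted p = 0.42). ZNF578 and ZNF8 were lower in both KO lines, ZNF578 by -0.52 and -0.77 at basal, and ZNF8 by -0.29 and -0.39. The call of ZNF578 in β-arrestin1/2 KO cells at basal (adjusted p = 0.044) was lost without the filter on low counts (adjusted p = 0.086) and without basal replicate 2 (0.16) or 3 (0.14) of that line or of wildtype (0.11 and 0.060).

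ZNF439 and ZNF486 separated the 2 KO lines. ZNF439 had 58.8, 52.2 and 44.4 counts in β-arrestin1/2 KO basal libraries, 4.67, 7.496 and 10.1 in Gαs KO basal libraries and 3.12, 24.5 and 20.1 in wildtype basal libraries, and the β-arrestin1/2 KO libraries lay above all others in both treatments. The difference of β-arrestin1/2 KO from Gαs KO was 2.78 ± 0.52 on the log2 scale (adjusted p = 0.00075) and that from wildtype 1.702 ± 0.49 (adjusted p = 0.013), or 1.21 without wildtype basal replicate 1 (adjusted p = 0.014). Gαs KO cells were below wildtype by -1.08 (adjusted p = 0.15), which passed without that library (-1.57, adjusted p = 0.0048). ZNF486 had 371.5, 338.0 and 347.9 counts in β-arrestin1/2 KO cells at basal, 163.4, 180.8 and 157.5 in Gαs KO cells and 94.8, 187.3 and 194.7 in wildtype, with log2 differences of 1.08 ± 0.19 from Gαs KO (adjusted p = 0.00044) and 1.15 ± 0.19 from wildtype (adjusted p = 0.00023). The wildtype count of 94.8 was that of basal replicate 1, so the difference from wildtype rests in part on that library, and no value without it is given.

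Along the chromosome, a distance of over 500000 bases to the next member ended a run. This gave 20 sub-clusters, of which 10 held at least 5 tested members and 235 of the 249 members. At 250000 bases there were 25 and at 1000000 bases 16. The calls in a run stand against the same background as those of all members, 15.7% of all genes called higher and 17.9% lower in β-arrestin1/2 KO cells at basal, and the runs are small. In β-arrestin1/2 KO cells at basal the run from ZNF653 to ZNF791 (chr19:11483427-12640098) had the highest median, 0.69 on the log2 scale, with 11 of 26 members called higher and 0 lower. It was followed by ZNF302 to ZNF792 (5 members, median 0.56, 3 higher), ZNF101 to ZNF254 (27 tested, 0.53, 8 higher and 1 lower), ZNF175 to ZNF331 (38, 0.40, 16 and 1) and ZNF575 to ZNF180 (22, 0.31, 12 and 1). The runs from ZNF414 to ZNF846 (13), ZNF565 to ZNF573 (26), ZNF628 to ZNF835 (16), ZNF264 to ZNF446 (43) and ZNF554 to ZNF77 (5) had medians from 0.12 to 0.18. Of these, ZNF264 to ZNF446 had 13 called higher and 4 lower (30.2% and 9.3%), ZNF565 to ZNF573 3 and 1, and ZNF554 to ZNF77 1 and 0.

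**Figure D4:**
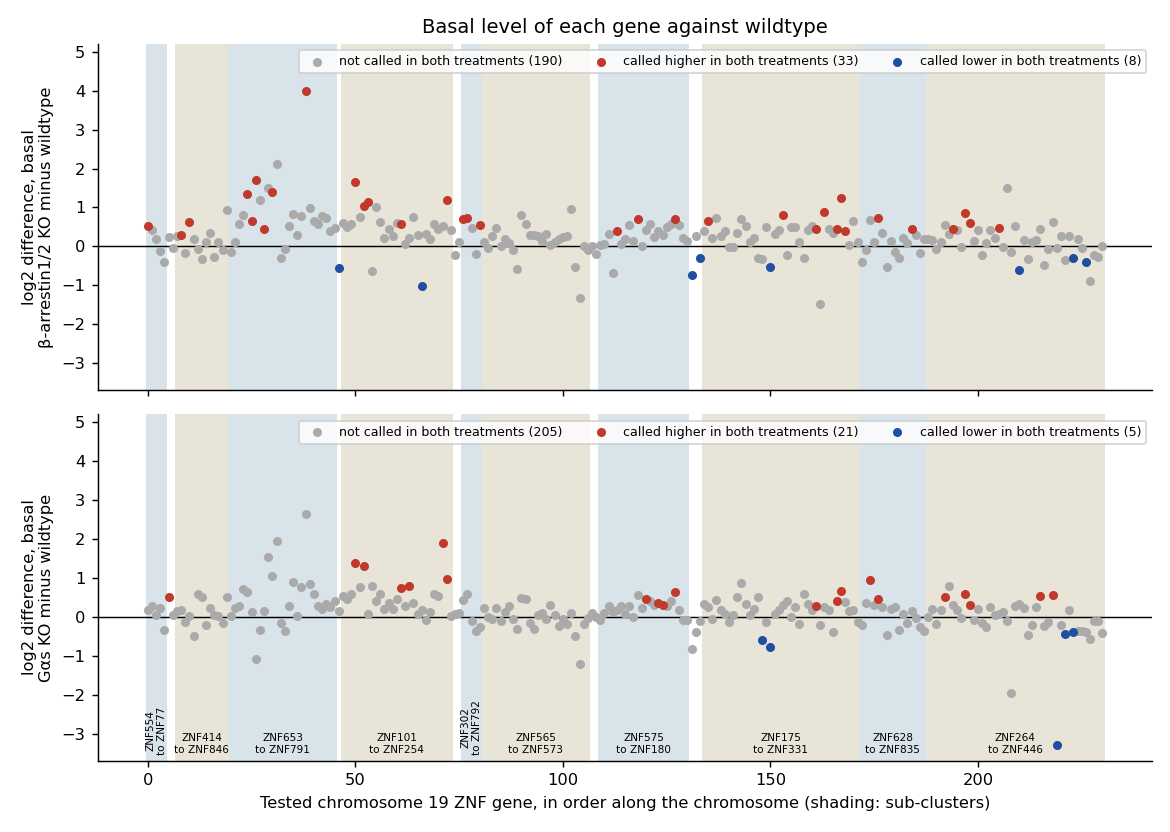
Log2 difference of each KO line from wildtype at basal for the 231 tested members, in order along chromosome 19, with sub-clusters of at least 5 tested members shaded. Coloured points were called in the same direction in both treatments, 33 higher and 8 lower in β-arrestin1/2 KO cells and 21 higher and 5 lower in Gαs KO cells.

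The order of the runs changed with the library that stood apart and with treatment. Without wildtype basal replicate 1 the ZNF653 to ZNF791 run still had the highest basal median in β-arrestin1/2 KO cells, 0.49, with 8 called higher and 0 lower, and with isoproterenol, a comparison in which that library takes no part in the means, it had 0.55, with 8 higher and 0 lower. Among all genes 23.4% were called higher and 24.0% lower in the former fit and 14.3% and 15.7% in the latter comparison. The ZNF302 to ZNF792 run kept medians of 0.42 and 0.55, with 3 of 5 called higher in each. The ZNF101 to ZNF254 run, the poorest in GC (median 38.4%), dropped from 0.53 to 0.19 without that library and was at 0.38 with isoproterenol. The ZNF565 to ZNF573 run was at -0.02 without that library, with 1 called higher and 4 lower, and at -0.08 with isoproterenol, with 0 called in either direction. The 43 members from ZNF264 to ZNF446 had 0.15 at basal and 0.03 with isoproterenol, with 5 called higher and 6 lower in the latter.

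The basal medians in Gαs KO cells were 0.47 for ZNF101 to ZNF254 (9 of 27 called higher, 0 lower), 0.28 for ZNF653 to ZNF791 (5 of 26, 0 lower) and 0.28 for ZNF575 to ZNF180 (5 of 22, 0 lower), and from -0.12 to 0.18 in the other 7 runs, where 14.2% of all genes were called higher and 17.1% lower. Without wildtype basal replicate 1 the median of ZNF101 to ZNF254 was 0.14, with 8 called higher and 1 lower, and that of ZNF565 to ZNF573 was -0.21, with 9 of 26 called lower and 0 higher, in a fit that called 22.1% of all genes higher and 24.5% lower. With isoproterenol ZNF653 to ZNF791 had the highest median in this line too, 0.47, with 4 called higher and 0 lower, and ZNF565 to ZNF573 had -0.10, with 2 called lower, against 14.1% of all genes higher and 15.8% lower. In that comparison ZNF175 to ZNF331 had 5 of 38 called lower and 4 higher. Without wildtype basal replicate 1, ZNF565 to ZNF573 had 7 lower and 0 higher in stimulated Gαs KO cells (all genes, 25.9% and 24.3%). In stimulated β-arrestin1/2 KO cells it had 6 lower and 2 higher in that fit (all genes, 25.2% and 25.2%).

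**Figure D5:**
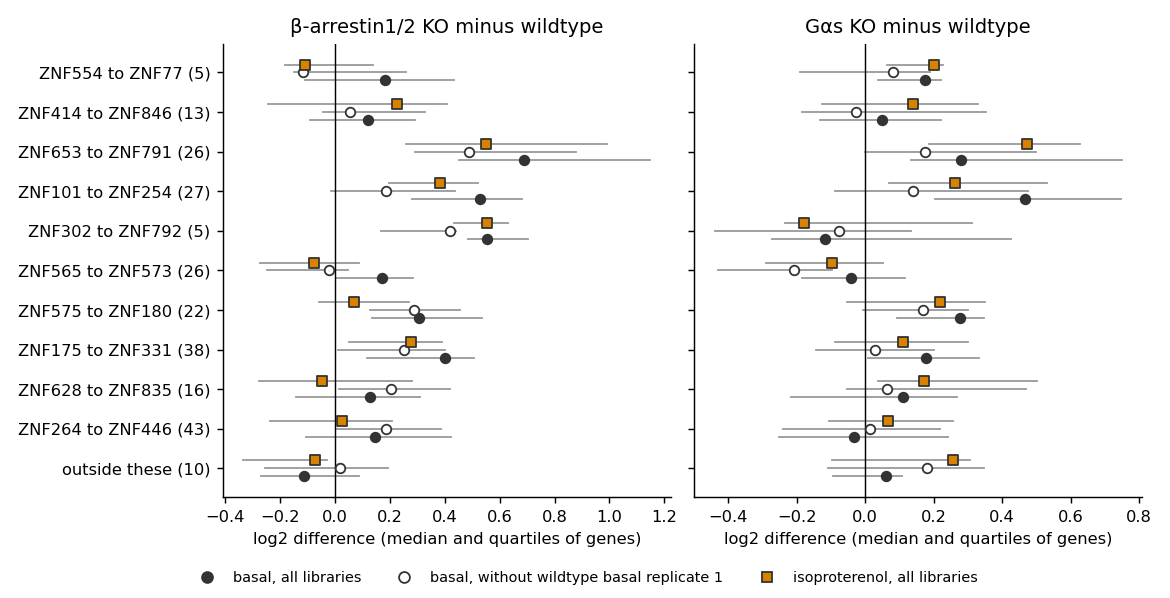
Median log2 difference from wildtype of the tested members in each sub-cluster (number in brackets), with lines from the lower to the upper quartile of genes. In β-arrestin1/2 KO cells ZNF653 to ZNF791 has the highest basal median with all libraries (0.69) and without wildtype basal replicate 1 (0.49), whereas ZNF101 to ZNF254 falls from 0.53 to 0.19.

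Within the ZNF653 to ZNF791 run, 23 of 26 members had a basal difference above 0 in β-arrestin1/2 KO cells. The members called in both treatments there were ZNF491, ZNF440, ZNF439, ZNF700, ZNF433 and ZNF563, with basal log2 differences of 1.35, 0.65, 1.702, 0.45, 1.39 and 3.98. The call of ZNF491 with isoproterenol was lost without any 1 of the 6 stimulated libraries compared (adjusted p from 0.056 to 0.12) and that at basal without basal replicate 2 (0.061) or 3 (0.055) of the KO line or 3 of wildtype (0.072). ZNF433 lost its call with isoproterenol without replicate 1 (0.055) or 3 (0.10) of the KO line or 1 (0.061) or 3 (0.097) of wildtype, and ZNF439 without wildtype isoproterenol replicate 2 (0.051). Of the members at its ends, ZNF653 differed by -0.15, which did not pass (adjusted p = 0.35), and ZNF791, the most abundant of the run per length, by 0.47 (adjusted p = 0.012), with 0.19 in stimulated libraries (adjusted p = 0.32). ZNF440 and ZNF700 are named after their values were seen. The neighbours ZNF440, ZNF439 and ZNF69 were the 3 members of the run called higher in β-arrestin1/2 KO than in Gαs KO cells, by 0.52, 2.78 and 1.53, a grouping seen in the values. Many members of this run are at low counts, with a median of 29.5 normalized counts per kilobase of transcript in wildtype, the lowest of the 10 runs, and 39.6 in β-arrestin1/2 KO cells.

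The ZNF101 to ZNF254 run held most of the members that were barely counted. Of its 37 members, 27 were tested, and among the other 10 ZNF728 and ZNF729 had no count in any library. ZNF93, which represses LINE-1 elements, had 1 to 12 counts per library and was not tested. ZNF91, which represses SVA elements, had log2 differences of 0.58 ± 0.26 at basal in both KO lines that did not pass (adjusted p = 0.098 and 0.10) and 0.02 and 0.26 with isoproterenol. ZNF43 differed at basal by 0.29 in the β-arrestin1/2 KO line and 0.07 in the Gαs KO line and ZNF675 by 0.44 and 0.53, none passing. Also there, ZNF90 and, named after their values were seen, ZNF738 and ZNF726 were called higher in both KO lines and both treatments, as ZNF253 was, whereas ZNF492 was called lower in β-arrestin1/2 KO cells and differed by 0.17 and -0.10 in Gαs KO cells (adjusted p = 0.62 and 0.80).

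Levels per kilobase of transcript differed widely between members. In wildtype they ran from 1.26 to 1200 normalized counts per kilobase, with a median of 83.4, and the medians were 96.7 in β-arrestin1/2 KO and 94.1 in Gαs KO cells. ZNF146, whose product is made of zinc fingers alone, was at 1200 ± 249 per kilobase (SD, n = 6 libraries of both treatments) in wildtype, with 1130 ± 50.9 for the β-arrestin1/2 KO line and 1100 ± 23.9 for the Gαs KO line. ZNF358 was at 1060 ± 218, 1070 ± 107 and 1190 ± 50.1, and ZNF121 at 988 ± 164, 804 ± 54.4 and 960 ± 27.5. These top members did not separate beyond their spread in wildtype. ZNF331 was the most abundant member of its run, at 378 per kilobase in wildtype over both treatments.

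Other members with a studied role were taken from a fixed list. ZNF274, which brings SETDB1 to the ends of other ZNF genes, was lower in Gαs KO cells by -0.46 (adjusted p = 0.0012) and -0.37 (adjusted p = 0.0054), and in β-arrestin1/2 KO cells by -0.34 at basal (adjusted p = 0.0086), with -0.22 in the stimulated libraries (adjusted p = 0.084). ZNF224, a repressor of the aldolase A gene, was higher in Gαs KO cells by 0.45 and 0.43 (adjusted p = 0.00094 and 0.0015), and ZNF45 was higher in β-arrestin1/2 KO cells by 0.39 and 0.31 (adjusted p = 0.0023 and 0.011). ZNF350, a partner of BRCA1, ZNF382 and ZNF180 passed in neither line, with differences between -0.20 and 0.33, and ZNF649 passed only in stimulated Gαs KO cells, at -0.31 (adjusted p = 0.026).

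TRIM28 and the genes that act with it were taken as a list. Of 25 tested, 1 was called higher and 6 lower in β-arrestin1/2 KO cells at basal (all genes, 15.7% and 17.9%) and 3 higher and 1 lower in Gαs KO cells (all genes, 14.2% and 17.1%), with medians of -0.05 and 0.13, and none was called in a response to isoproterenol (5, 2 and 0 had an unadjusted p under 0.05 in the wildtype, β-arrestin1/2 KO and then Gαs KO response). TRIM28 itself did not pass, with -0.16 in β-arrestin1/2 KO (adjusted p = 0.30) and -0.15 in Gαs KO cells (adjusted p = 0.34), and neither did SETDB1. CBX5, the heterochromatin protein HP1α, was higher in both lines (0.95 and 1.20, adjusted p = 3.7e-05 and 3.7e-06). DNMT3B, a DNA methyltransferase, was lower in both (-0.73 and -0.89, adjusted p = 4.6e-05 and 6.2e-06). In β-arrestin1/2 KO cells CHD3 (-0.83), the histone methyltransferase gene SUV39H1 (-0.73), DNMT3A (-0.39) and CBX1 (-0.26) were also lower at basal. The last of the 6, EHMT2, had 0 counts in the basal libraries of that line. It ran from 0 to 202 counts over all libraries, so its call is uncertain and no fold size is given. MPHOSPH8, of the HUSH silencing complex, was higher in Gαs KO cells (1.03, adjusted p = 3.2e-06). These basal values include wildtype basal replicate 1. With isoproterenol CBX5 (0.645 and 1.04) and DNMT3B (-0.69 and -0.91) were also called in both lines, and MPHOSPH8 (0.68) in Gαs KO cells. CHD3 (-0.96), SUV39H1 (-0.64), DNMT3A (-0.52) and CBX1 (-0.41) were again called lower in β-arrestin1/2 KO cells, and EHMT2 did not pass (edgeR adjusted p = 0.39). The part of these genes in the levels of the chromosome 19 ZNF genes was not tested.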

How the data were processed

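mRNA was selected with poly-T beads and sequenced on an Illumina NovaSeq. Per the labels, the authors used Salmon 1.7.0, and the deposited table holds its expected counts (estimated counts) per transcript and library. Their processing notes also name DESeq2 and the build GRCh38. Here 161838 of 184844 transcripts were matched to GENCODE release 29 (92.94% to 93.76% of each library's counts), summed per gene and rounded. The remaining transcripts were not used. Genes were filtered with filterByExpr, scaled by TMM and fitted with edgeR 4.0.16 (R 4.3.3; quasi-likelihood test, 6 group means, all 18 libraries), with Benjamini-Hochberg adjustment over 15530 genes; a call is an adjusted p under 0.05. On simulated data of 15530 genes, 159 of 200 genes changed 3-fold in the basal β-arrestin1/2 KO comparison were recovered, with 4 false calls among the unchanged genes. The simulation gave all groups a common mean per gene and held no library of shifted base composition. Its error rate therefore need not hold for the calls reported here. A depth of 17908597 to 25019834 counts per library sets the precision of low genes. Fold sizes against groups at 0 use a floor of 3 counts, which covers counting error only.

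The members and lists were chosen with earlier results of these data known. Named members were those called in the same direction at basal and with isoproterenol (first 8 each way per line), those near 0 in one line and counted in another, those called in a response, 13 fixed genes (ZNF91, ZNF93, ZNF43, ZNF45, ZNF180, ZNF224, ZNF274, ZNF331, ZNF350, ZNF382, ZNF473, ZNF649 and ZNF675) and the ends of runs. Transcript starts of ZNF331 over 5000 bases apart formed separate blocks, chosen after its values were seen. Alternatives were other scalings, filters, DESeq2 1.42.0, GC and length offsets, fewer libraries and thresholds.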

Additional observations from a re-analysis of the deposited data

Results flagged for a closer look

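The response of ZNF331 to isoproterenol differed between Gαs KO and wildtype cells by -0.98 on the log2 scale (edgeR quasi-likelihood test of the difference of responses, adjusted p = 0.00095), with 3 of 3 stimulated wildtype libraries above every basal one and overlapping groups in Gαs KO cells. It was the only member for which a difference of responses passed in the fit of all libraries. Groups of 3 libraries were too small for the search for single deviating samples.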

How the results depend on the processing

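In the 92 comparisons in which named members (29 of them) were called in the fit of all libraries, they kept their direction under all alternatives run. Of 1374 values 1251 also kept their side of the threshold. Of the 123 that lost it, 29 did so with only the libraries compared, 76 with a replicate left out and 9 without the filter on low counts. Comparisons of named members that were not called were not followed in this way. Counts of called members below are given in the order β-arrestin1/2 KO and Gαs KO against wildtype at basal, β-arrestin1/2 KO against Gαs KO, then both KO lines against wildtype with isoproterenol (86, 44, 34, 53 and 47 as reported). An adjusted p under 0.01 gave 46, 25, 18, 23 and 26, and an absolute log2 difference of at least 1 gave 12, 6, 8, 8 and 5, with 0 for the difference of the Gαs KO response. With only the libraries compared they were 12, 10, 72, 92 and 87, and the wildtype and β-arrestin1/2 KO responses had 0 and 10. GC and length offsets gave 102, 80, 66, 83 and 85, with 8 in the β-arrestin1/2 KO response and 63 and 58 in both treatments, and with the replicate block added 79, 65, 85 and 84 in the last 4, 8 in that response, and 64 and 58. The split with these offsets was 78 higher to 24 lower, 51 to 29, 46 to 20, 54 to 29 and 66 to 19. The β-arrestin1/2 KO response had 2 members under upper-quartile scaling and 4 by DESeq2, which also called 1 in its difference from wildtype. Replicate numbers did not pair the libraries (correlations from -0.1 to 0.066 over 45 pairs), and the replicate block gave 86, 46, 33, 51 and 48, with 2 in the β-arrestin1/2 KO response. Leaving out a replicate of the groups compared gave 63 to 105, 28 to 72, 25 to 30, 31 to 42 and 34 to 41 in the same order, 1 to 1 and 1 to 2 in the wildtype and β-arrestin1/2 KO responses and 0 to 0 in that of Gαs KO cells, 0 to 11 and 1 to 1 in the differences of responses, and 24 to 65 (β-arrestin1/2 KO) and 18 to 57 (Gαs KO) in both treatments; wildtype basal replicate 1 gave the 72, 11, 65 and 57, basal replicate 3 of Gαs KO the 28, and isoproterenol replicate 1 of β-arrestin1/2 KO the 31 and 24. Low counts limit members such as ZNF563 and ZNF439. The causes of these shifts were not tested. Shares of all genes are not given for most of these alternatives, so the counts alone do not set the members apart from other genes.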
